A study of Mus musculus with 4 samples.

Results

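The genes described are 10 immediate early genes centred on the transcription factor AP-1: Fos, Fosb, Jun, Junb, Jund, Egr1, Atf3, Ier2, Dusp1 and Nr4a1. They were taken by symbol, and all 10 were among the 55487 genes measured. They were measured by bulk RNA sequencing in adipocytes from the perigonadal white fat of males kept on standard diet. The mice were CKO animals and their control littermates, labelled WT, with 2 libraries in each group. The title of the series names BLIMP1, a transcriptional repressor encoded by Prdm1, and macrophages; the labels spell out neither CKO nor the promoter behind it, and give no ages. They do not say whether each library came from a separate animal, so p-values measure the spread between these libraries, which may be technical.

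Immediate early genes are transcribed within minutes of a stimulus from factors already present in the cell, without new protein synthesis. FOS proteins pair with JUN proteins through leucine zippers to form AP-1, while ATF3 joins the same network as a related zipper protein that often represses. Growth factors, cyclic AMP and stress kinases reach these promoters through serum response factor with its ETS partners and through CREB, which binds the cyclic AMP response element (CRE). The same genes are known to be induced while a tissue is cut and digested into cells, and they are strongly inducible in macrophages as well as in adipocytes.

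Promoter sequences from RefSeq (GRCm38.p6) were at hand for 8 of the 10 genes, the others being Egr1 and Ier2. Those of Fos, Jun, Atf3 and Dusp1 are shown because these 4 genes stand for the patterns found across the libraries. Each line gives the 250 bases before the start, 5′ to 3′ on the gene's strand, with matches to the CRE or its core, to the TATA box and to the CCAAT box in capitals (a core on the other strand reads CGTCA). The windows are chr12:85473640-85473889 (plus strand), chr4:95052223-95052472, chr1:191183334-191183583 and chr17:26508473-26508722 (minus strand each).
Fos: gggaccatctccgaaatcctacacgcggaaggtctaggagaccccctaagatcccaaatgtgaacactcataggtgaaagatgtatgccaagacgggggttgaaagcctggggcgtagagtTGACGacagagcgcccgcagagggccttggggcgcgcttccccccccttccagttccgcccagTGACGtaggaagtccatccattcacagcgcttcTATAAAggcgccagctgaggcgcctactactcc
Jun: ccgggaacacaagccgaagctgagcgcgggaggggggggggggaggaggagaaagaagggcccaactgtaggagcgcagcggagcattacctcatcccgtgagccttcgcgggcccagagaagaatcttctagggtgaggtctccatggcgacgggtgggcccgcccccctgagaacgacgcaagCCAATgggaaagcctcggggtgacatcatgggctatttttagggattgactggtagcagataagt
Atf3: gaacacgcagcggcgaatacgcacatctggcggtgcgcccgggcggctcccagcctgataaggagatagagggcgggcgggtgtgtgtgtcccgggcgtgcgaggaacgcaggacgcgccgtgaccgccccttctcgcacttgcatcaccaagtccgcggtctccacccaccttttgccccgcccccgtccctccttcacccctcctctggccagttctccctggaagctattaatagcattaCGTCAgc
Dusp1: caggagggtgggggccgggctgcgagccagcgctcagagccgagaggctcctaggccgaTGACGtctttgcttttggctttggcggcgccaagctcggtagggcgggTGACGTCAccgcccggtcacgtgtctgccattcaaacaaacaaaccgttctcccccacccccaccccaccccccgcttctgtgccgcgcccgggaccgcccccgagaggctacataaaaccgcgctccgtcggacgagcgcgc

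Motifs were searched on both strands from 250 bases before to 50 after the start. The CRE core TGACG was found in 6 of the 8 promoters, those of Fos, Fosb, Junb, Atf3, Dusp1 and Nr4a1, and in 20.8% of all 32851 promoters of that length. Jun and Jund were the pair without it. Nr4a1 had 4 matches, at 233, 213, 69 and 40 bases before the start as counted from the first base of each. Fos had one at 66 bases before the start and another at 129. The full palindrome TGACGTCA, which holds the core on both strands, stood in the Dusp1 promoter (143 bases before the start) and in 1.79% of all promoters. The GC box GGGCGG was in 6 of 8 (all but Junb and Jund) and in 35.7% of all. A TATA box, TATAAA, was in Fos (33 bases before the start) and Junb (from base 1 after it) and in 13.6% of all, and a CCAAT box, CCAAT, in Jun, Junb and Atf3 and in 37.4% of all. EGR sites, GCGTGGGCG or GCGGGGGCG, which overlap a GC box in both promoters, were in Fosb and Nr4a1 and in 3.47% of all. The AP-1 site TGANTCA and the serum response element matched 0 and 0 of the 8 windows and 7.81% and 1.63% of all, which says only that these letters are not in these windows. The RefSeq start used for Jund lies before the start of the GENCODE M21 gene. For Atf3 and Dusp1 the windows shown lie inside the M21 genes. On the minus strand those genes begin at 191218039 and 26562128.

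**Figure D1:**
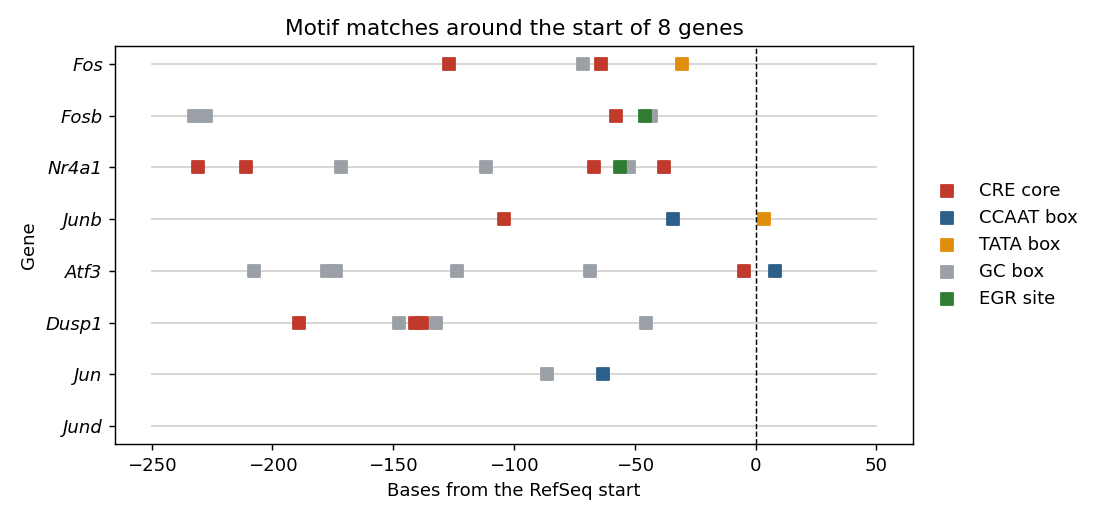
Positions of motif matches from 250 bases before to 50 after the RefSeq start in 8 genes; squares mark the middle of each match and the dashed line the start. The CRE core is present in 6 genes, the exceptions being Jun and Jund.

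Libraries held 24152081 to 26742547 reads. Values are reads divided by a size factor for each library (scaled reads), and each difference is that of CKO minus WT in log2(scaled reads + 1). Markers of some cell types moved with the groups, while the sums for mesothelial, smooth muscle, and T and B cell markers overlapped. The summed scaled reads of 12 macrophage markers were 42600.5 and 89504 in CKO replicates 1 and 2 and 182359 and 539370.4 in WT replicates 1 and 2. Those of 8 adipocyte markers, which were high in every library and fit the labelled cell type, were 718603 and 628935 in CKO and 555793 and 200871 in WT. WT replicate 2 therefore stood apart, with the most macrophage and the least adipocyte marker RNA. Prdm1 had 152 and 349.6 scaled reads in CKO and 534 and 1193 in WT; the part of the gene a CKO allele would lack is not given, so its level does not check the labels. In bulk RNA, fewer cells of a type and less RNA per cell cannot be told apart.

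Most of the immediate early genes were among the most abundant messages of this preparation in both groups. The exceptions were Nr4a1, Fosb and Jund, at ranks 332, 1364 and 15488 per kilobase of exon. Together the 10 genes took 1.26% and 1.98% of all reads in CKO replicates 1 and 2, against 1.39% and 1.62% in WT replicates 1 and 2. The share was highest in CKO replicate 2 and lowest in CKO replicate 1, and the WT libraries lay between them. Per kilobase of exon, Fos was 24th of the 16871 genes tested, with 41692 scaled reads per kb as the mean of the 4 libraries. Dusp1 followed at 23605, Jun at 18108, Junb at 17878 and Egr1 at 14218. Atf3 and Ier2 had 11359 and 10888 scaled reads per kb. Nr4a1, at 3355, and Fosb, at 994, were lower, and Jund had 6.22. From Fos to Ier2, neighbours in this order overlapped in their ranges over the 4 libraries, while Nr4a1, Fosb and Jund each lay clear of the gene above.

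**Figure D2:**
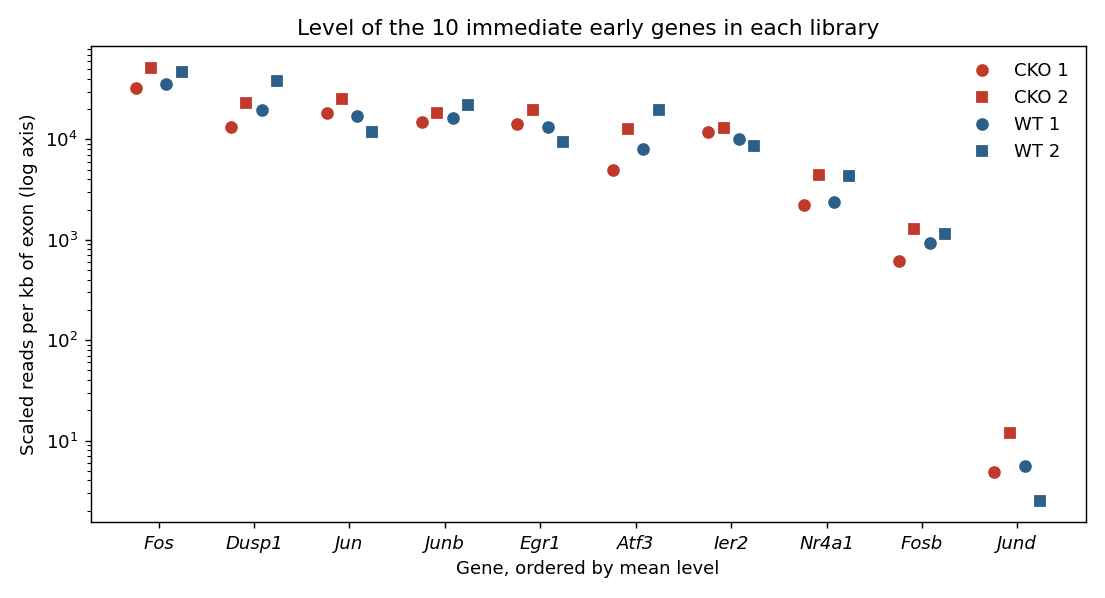
Scaled reads per kilobase of exon (log axis) of the 10 genes, ordered by mean level; circles are replicate 1 and squares replicate 2, red CKO and blue WT. Fos lies between 32499.8 and 51927 in the 4 libraries, Fosb between 619 and 1287, and Jund near the floor of the plot.

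No member passed the test between CKO and WT. Across the table, 0 of 16871 genes passed an adjusted p under 0.05 in limma (0.0%), the smallest being 0.459, and 0 of the 10 members did so. At an unadjusted p under 0.05 the count of members was 0 as well, against 3.35% of all genes higher and 7.26% lower, and voom weights also gave 0 members at either threshold. Of the 10 differences, 5 were positive and 5 negative, where 51.1% of all genes were positive. Their median was -0.016, beside 0.015 over all genes tested, and they ran from -0.68 (Atf3) to 0.59 (Jun) apart from Jund, whose 0.90 rests on 4 to 22 reads. The groups did not overlap for 3 members, where 50.7% of all genes had no overlap. All 3, Jun, Egr1 and Ier2, were higher in CKO, beside 23.9% of all genes, and 0 were lower, beside 26.8%. The count on the higher side is near the background. All 10 members passed the filter on low values, Jund only through its CKO libraries. Without Jund, 4 of the other 9 were positive and the middle value was that of Nr4a1, -0.044. The intervals were wide: for Fos the data allowed anything from -2.13 to 2.15, so equality of the groups was not shown either.

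**Figure D3:**
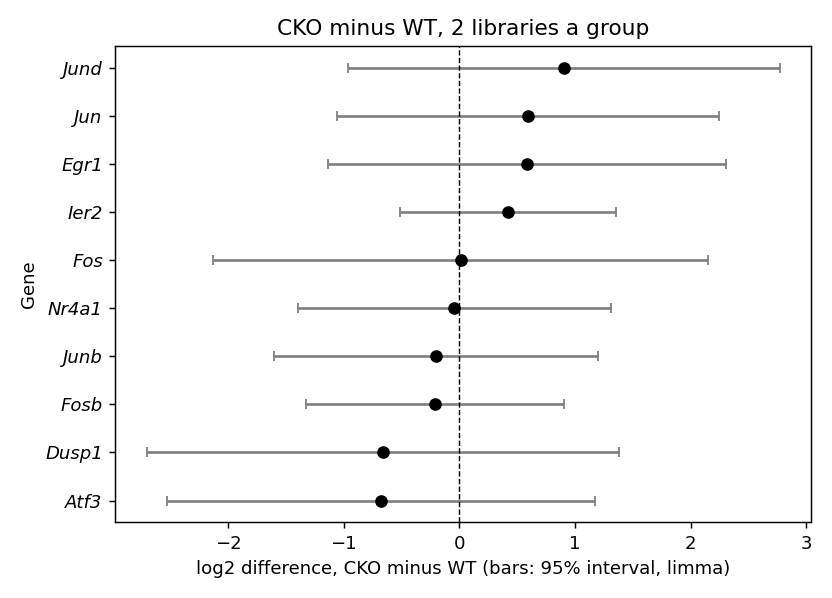
Log2 difference, CKO minus WT, for each gene (points) with its 95% interval from limma (bars), 2 libraries a group. Each interval includes 0; the estimates run from -0.68 for Atf3 to 0.59 for Jun, with Jund at 0.90 from 4 to 22 reads and its interval no test.

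The FOS subunits and Nr4a1 had overlapping groups, with wide gaps between libraries of one genotype. Fos (chromosome 12, 85473890 to 85477273, plus strand, GRCm38), the transiently induced prototype of the AP-1 genes, had 76439 and 122131 scaled reads in CKO replicates 1 and 2, against 83155 and 110514 in WT replicates 1 and 2. CKO replicate 2 was the highest and CKO replicate 1 the lowest, so the groups overlapped, with a log2 difference of 0.011 (95% interval -2.13 to 2.15, limma adjusted p = 0.996). Fosb (chromosome 7, 19302696 to 19310051, minus strand), a FOS paralogue, had 3867 and 8033 scaled reads in CKO replicates 1 and 2, against 5856 and 7068 in WT replicates 1 and 2. Its order of libraries was that of Fos, and CKO replicate 2 stood 2.08 times above CKO replicate 1, with a log2 difference of -0.21 (95% interval -1.32 to 0.91, limma adjusted p = 0.837). Nr4a1 (chromosome 15, 101254269 to 101274795, plus strand), the orphan nuclear receptor NUR77, had 7739 and 15644 scaled reads in CKO replicates 1 and 2, against 8407 and 15303 in WT replicates 1 and 2. The second replicate was about as high in CKO as in WT and the first about as low, the order of libraries being again that of Fos, with a log2 difference of -0.044 (95% interval -1.40 to 1.31, limma adjusted p = 0.975). Replicate numbers here only name libraries and pair none.

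Junb (chromosome 8, 84974484 to 84978718, minus strand), a JUN family subunit that is a weaker activator than JUN, had 34374 and 41925 scaled reads in CKO replicates 1 and 2, against 37647 and 50601 in WT replicates 1 and 2. Its range was the narrowest of the 10, the highest library 1.47 times the lowest, and the groups overlapped, with a log2 difference of -0.20 (95% interval -1.60 to 1.20, limma adjusted p = 0.877). Its gene overlaps Prdx2 on the other strand, which had 2723 and 3156 reads in CKO and 3283 and 4241 in WT, and the sources used here do not say whether strand was used in counting.

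Atf3 and Dusp1, a repressor and a brake of the response, had the largest negative differences, and neither passed the test. Atf3 (chromosome 1, 191170296 to 191218039, minus strand), a stress-induced zipper protein that damps inflammatory genes, had 10593 and 27297 scaled reads in CKO replicates 1 and 2, against 17353 and 42624 in WT replicates 1 and 2. WT replicate 2 was the highest and CKO replicate 1 the lowest, 4.02 times apart, while CKO replicate 2 lay above WT replicate 1. The groups therefore overlapped, with a log2 difference of -0.68 (95% interval -2.53 to 1.17, limma adjusted p = 0.676). Dusp1 (chromosome 17, 26505590 to 26562128, minus strand), a phosphatase that switches off MAP kinases, had 43819 and 76181 scaled reads in CKO replicates 1 and 2, against 65585 and 127036 in WT replicates 1 and 2. Its order of libraries was that of Atf3, with a log2 difference of -0.66 (95% interval -2.70 to 1.38, limma adjusted p = 0.709). Without WT replicate 2 the differences were -0.04 for Atf3 and -0.19 for Dusp1, and without CKO replicate 1 they were -0.0034 and -0.27. Without CKO replicate 2 they were -1.36 and -1.06, and without WT replicate 1 -1.33 and -1.14. Ergic1, which overlaps Dusp1 on the other strand, had 3165 and 3552 reads in CKO and 4225 and 5929 in WT. The libraries at either end for these genes, CKO replicate 1 and WT replicate 2, also had the fewest and the most macrophage marker reads; their part in the result was not tested.

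Jun, Egr1 and Ier2 were higher in both CKO libraries than in both WT libraries, and the differences did not pass the test in limma. Jun (chromosome 4, 95049034 to 95052222, minus strand), the main partner of FOS, had 58557 and 80036 scaled reads in CKO replicates 1 and 2, against 54683 and 37708 in WT replicates 1 and 2. CKO replicate 2 was the highest and WT replicate 2 the lowest, with a log2 difference of 0.59 (95% interval -1.06 to 2.25, limma adjusted p = 0.682). Egr1 (chromosome 18, 34859823 to 34864984, plus strand), a zinc finger factor induced through serum response elements, had 64550.4 and 88339 scaled reads in CKO replicates 1 and 2, against 59732 and 42401 in WT replicates 1 and 2. It followed the same order, with a log2 difference of 0.59 (95% interval -1.13 to 2.30, limma adjusted p = 0.695). Ier2 (chromosome 8, 84661331 to 84662852, minus strand), which encodes a small protein induced by growth factors, had 18131 and 19774 scaled reads in CKO replicates 1 and 2, against 15208 and 13174 in WT replicates 1 and 2. The order was again that of Jun, with a log2 difference of 0.42 (95% interval -0.51 to 1.35, limma adjusted p = 0.611). On the log2 scale, replicate 2 minus replicate 1 of Ier2 was 0.13 in CKO and -0.21 in WT, smaller than the difference between the groups. For Jun these gaps were 0.45 and -0.54, and for Egr1 0.45 and -0.49, closer in size to the difference between the groups. Without WT replicate 2 the differences of Jun, Egr1 and Ier2 were 0.31, 0.33 and 0.31. The antisense gene Junos, which overlaps Jun, had 16 and 42 reads in CKO and 22 and 22 in WT. The Ier2 coordinates come from the M21 entry of another version of the same identifier.

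Jund (chromosome 8, 70698949 to 70700616, plus strand), usually the steady and widely expressed JUN, had 8 and 22 reads in CKO replicates 1 and 2, against 9 and 4 in WT replicates 1 and 2. The groups overlapped, and with so few reads counting error alone is large. Jund passed the filter on low values only through CKO, where it was higher, so its log2 difference of 0.90 is given as a description with no test. The value was 0.29 without CKO replicate 2, 0.40 without WT replicate 2, 1.503 without CKO replicate 1 and 0.49 with a pseudocount of 10. An antisense gene, Gm11175, overlaps Jund and had 0 reads in all 4 libraries. The sources used here do not say how reads over both genes were counted, so the level of Jund is uncertain.

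**Figure D4:**
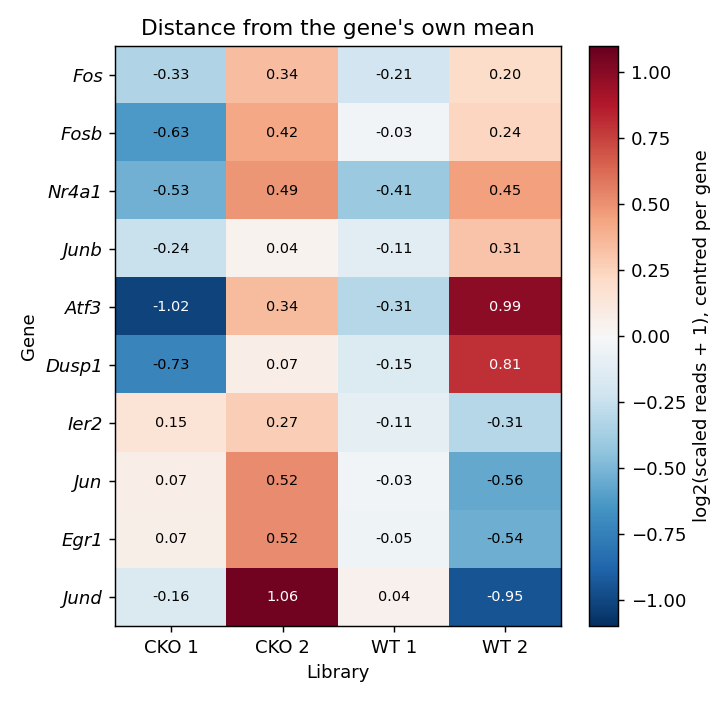
Distance of each library from the gene's own mean over the 4 libraries, in log2(scaled reads + 1); rows are genes and columns libraries, red above and blue below the mean. Fos, Fosb, Nr4a1, Junb, Atf3 and Dusp1 are lowest in CKO replicate 1, and Ier2, Jun, Egr1 and Jund are lowest in WT replicate 2.

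The 10 genes did not vary as a unit. All 10 lay above their own mean in CKO replicate 2, as did 8330 of all 16871 genes tested. Of the members, 7 were highest there, the other 3 (Junb, Atf3 and Dusp1) being highest in WT replicate 2. These counts include Jund, at 4 to 22 reads, which passed the filter on low values only through CKO. In CKO replicate 1, 6 were at their lowest, and in WT replicate 2 the other 4. Of all 16871 genes tested, 3600 were highest in CKO replicate 2 and 6748 in WT replicate 2, while 5108 were lowest in CKO replicate 1 and 6448 in WT replicate 2. The share of members lowest in WT replicate 2 is thus near that of all genes. Among the 8 genes with a promoter sequence, the 6 at their lowest in CKO replicate 1 were the 6 with a CRE core, and Jun and Jund were at their lowest in WT replicate 2. That is a description of 8 genes over 4 libraries, in groups seen in these values. Jund counts there with 4 to 22 reads. Egr1 and Ier2, also lowest in WT replicate 2, had no promoter sequence to search. How many of all genes with a CRE core were lowest in CKO replicate 1 was not counted, and a link of motif and level was not tested. Between replicates, the median SD of the members on the log2 scale was 0.521 in CKO and 0.364 in WT, beside 0.228 and 0.393 over all genes tested.

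Jun and Egr1 moved almost as one. The ratio of Egr1 to Jun, each per kilobase of exon, was 0.784 and 0.785 in CKO replicates 1 and 2 and 0.777 and 0.800 in WT replicates 1 and 2, a range of 1.03 times from lowest to highest. By the root mean square distance of centred log2 profiles over the 4 libraries, Egr1 was the nearest to Jun of all genes tested, at 0.0152, and Jun the nearest to Egr1. The genes lie on different chromosomes and share no annotated exon. The ratio of Jun to Fos was 0.565 and 0.483 in CKO replicates 1 and 2 and 0.485 and 0.252 in WT replicates 1 and 2. WT replicate 2, second highest for Fos, had the least Jun for its Fos. The ratio of Atf3 to Jun was 0.268 and 0.505 in CKO replicates 1 and 2 and 0.470 and 1.67 in WT replicates 1 and 2, a range of 6.25 times. The ratio of Atf3 to Dusp1 was steadier than that, at 0.372 and 0.551 in CKO replicates 1 and 2 and 0.407 and 0.516 in WT replicates 1 and 2. Its range of 1.48 times was not particular to the pair. Ranges were 1.33, 1.37 and 1.39 times for Junb, Nr4a1 and Fosb to Fos, and 1.41 for Ier2 to Jun. Those of Jun to Fos, at 2.25, and Dusp1 to Jun, at 4.50, were wider. Within a library such ratios do not depend on depth or scaling.

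Among genes outside the lists used here, the profile nearest to the mean of the 10 members, over 4 libraries, was that of Sp110 at a distance of 0.0259. Itpripl1, Plekhg3, Khnyn and Mospd2 came next, at 0.0283, 0.0431, 0.0447 and 0.0483. That mean gives Jund, at 4 to 22 reads, the same weight as each other member. Jund lay 1.06 above its own mean in CKO replicate 2 and at -0.95 in WT replicate 2. The mean also blends members lowest in CKO replicate 1 with members lowest in WT replicate 2. The distances therefore describe the mean and no single member, and the ranking without Jund was not computed.

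Other members of the AP-1 network showed no call either (0 at an adjusted p under 0.05 in limma, 0 higher and 1 lower at an unadjusted p under 0.05). Over all genes tested, 3.35% were higher and 7.26% lower at that unadjusted threshold, the shares to set beside each list that follows. Of the 11 genes tested on this list, 4 had a positive and 7 a negative difference, with a median of -0.14. Batf3, a zipper protein needed for a class of dendritic cells, was the one at an unadjusted p under 0.05, with 108 ± 48.8 scaled reads in CKO and 369 ± 203 in WT (SD, n = 2 each), a log2 difference of -1.73 (SE 0.57). Its relatives Batf and Batf2, which pair with JUN proteins in immune cells, had differences of -1.56 and -0.86. Both CKO libraries lay below both WT libraries for each of these BATF genes. From highest to lowest the order was WT replicate 2, WT replicate 1, CKO replicate 2 and CKO replicate 1. The macrophage marker Adgre1 and the summed macrophage markers had the same order. These BATF genes, and those set beside Adgre1 in the lists below, were named for small p, which favours groups without overlap. The share of all genes with this order was not counted, while 26.8% had both CKO libraries below both WT libraries. The part of macrophages in the result was not tested. Mafk, a small MAF protein, was at 0.52. Fosl1 and Fosl2, the remaining FOS relatives, had differences of -0.42 and -0.25 with overlapping groups.

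The close relatives of Egr1, Nr4a1, Ier2 and Dusp1 split in direction (0 adjusted calls in limma, 1 higher and 1 lower at an unadjusted p under 0.05). Of the 16 genes tested on this list, 8 had a positive and 8 a negative difference, with a median of -4.3e-05. Egr2, which is induced in activated myeloid and T cells, had 70.7 ± 31.97 scaled reads in CKO and 301 ± 193 in WT (SD, n = 2 each), a log2 difference of -1.98 (SE 0.64). Egr1 itself had the opposite sign, and the difference between these paralogues was not tested. The phosphatase genes Dusp2 and Dusp5, which act on ERK, were at -1.77 and -2.02, and Dusp8, a phosphatase of stress kinases, was at 1.12 (SE 0.32). Egr2, Dusp2 and Dusp5 followed the order of libraries of Adgre1, as the BATF genes did. They too were named for small p, and the part of macrophages was not tested. Nr4a2 and Nr4a3, the paralogues of Nr4a1, were at -0.046 and -0.30 with overlapping groups.

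A wider list of rapidly induced genes also split in direction (0 adjusted calls in limma, 1 higher and 3 lower at an unadjusted p under 0.05). Of the 26 genes tested on this list, 13 had a positive and 13 a negative difference, with a median of 0.004. Gadd45b, a stress sensor of growth arrest, had 935 ± 266 scaled reads in CKO and 4682 ± 3618 in WT (SD, n = 2 each), a log2 difference of -2.10 (SE 0.63). Its paralogue Gadd45g had the opposite sign, with 7174 ± 1834 scaled reads in CKO and 2692 ± 1025 in WT (SD, n = 2 each) and a difference of 1.44 (SE 0.39). Ptgs2, the inducible cyclooxygenase, and Pim1, a kinase induced by cytokines, were at -1.90 and -1.82. Gadd45b, Ptgs2 and Pim1 had the order of libraries of Adgre1, with the part of macrophages not tested. Of these 26 genes, 13 were highest in CKO replicate 2 and 11 in WT replicate 2, and 15 were lowest in CKO replicate 1. Over all 16871 genes tested these counts were 3600, 6748 and 5108. Ccn1, a matrix protein and target of serum response factor, was named after its values were seen. It had 18105 and 44789 scaled reads in CKO replicates 1 and 2, against 16231 and 6053 in WT replicates 1 and 2, the same order of libraries as Jun.

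The regulators upstream of these genes, transcription factors and MAP kinases, had no call (0 adjusted calls in limma, 1 higher and 0 lower at an unadjusted p under 0.05). Of the 22 genes tested on this list, 9 had a positive and 13 a negative difference, with a median of -0.037. Elk4, an ETS partner of serum response factor, had 1129.9 ± 4.38 scaled reads in CKO and 697 ± 92.8 in WT (SD, n = 2 each), a log2 difference of 0.70 (SE 0.24). Srf itself, which encodes serum response factor, had 1009.6 ± 20.04 scaled reads in CKO and 673 ± 51.02 in WT (SD, n = 2 each), a difference of 0.59 (SE 0.23). Mrtfa, an actin-sensing coactivator of the same factor, was at -1.45, and Map2k3, a kinase upstream of p38, at -0.64; both had the order of libraries of Adgre1, with the part of macrophages not tested. Creb1, which encodes CREB, was at 0.17, with both CKO libraries above both WT libraries.

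Genes textbooks place under AP-1 control had mostly negative differences without an adjusted call (0 in limma, 0 higher and 2 lower at an unadjusted p under 0.05). Of the 13 genes tested on this list, 3 had a positive and 10 a negative difference, with a median of -1.37, beside 0.015 over all genes tested. The median was -0.73 without CKO replicate 1, -2.03 without CKO replicate 2 and -0.94 with the stricter filter on low values. Mmp3, a secreted matrix metalloproteinase, had 2 and 7 reads in CKO replicates 1 and 2, against 21 and 95 in WT replicates 1 and 2. Mmp3 passed the filter on low values only through WT, where it was higher. Its log2 difference of -3.35 is therefore a description with no test, although the counts above include it. Mmp13, a collagenase, had 3 and 40 reads in CKO, against 92 and 386 in WT, a log2 difference of -4.02 (SE 1.29). Both genes were lower in both CKO libraries, at few reads. Plaur, the urokinase receptor, and Hmox1, which degrades haem, were at -1.37 and -1.29. Of the 13 genes, 9 peaked in WT replicate 2, where macrophage marker RNA was most abundant. In CKO replicate 1, where it was least abundant, 10 were lowest. Of all 16871 genes tested, 6748 were highest in WT replicate 2 and 5108 lowest in CKO replicate 1. The part of macrophages in the result was not tested.

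Without WT replicate 1, only differences are given, because WT replicate 2 is then the only WT library. The genes of the related lists named here were picked for small p in that fit, where genes over the whole table had small p as well. The log2 differences there were -2.69 for Egr2, -2.77 for Dusp2, -2.99 for Gadd45b, 1.84 for Gadd45g, -2.60 for Ptgs2, -2.60 for Pim1 and -2.30 for Mrtfa. Mmp3 was at -4.44, given as a description because it passed the filter on low values only through WT. In that fit WT replicate 2 stands alone, and its variability is taken from the pair of CKO libraries.

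Heat shock genes, which are also induced by tissue dissociation, set CKO replicate 2 apart. Hspa1a and Hspa1b encode the inducible HSP70 chaperone. Hspa1b had 596 and 11054 scaled reads in CKO replicates 1 and 2, against 489 and 729.7 in WT replicates 1 and 2. Hspa1a, named after its values were seen, had 616 and 9692 scaled reads in CKO replicates 1 and 2, against 745 and 1326 in WT replicates 1 and 2. CKO replicate 2 thus stood 18.5 and 15.7 times above CKO replicate 1, while WT replicate 2 was 1.49 and 1.78 times WT replicate 1. These are near-identical copies that can share reads. Of 11 heat shock genes, 9 were highest in CKO replicate 2 and 6 lowest in CKO replicate 1. Over all 16871 genes tested, 3600 were highest in CKO replicate 2 and 5108 lowest in CKO replicate 1. Hspb1, a small chaperone, had 2352 and 8469 scaled reads in CKO replicates 1 and 2, against 3440.1 and 1183 in WT replicates 1 and 2. Dnajb1, an HSP70 cochaperone, had 4035 and 6936 scaled reads in CKO replicates 1 and 2, against 3289.6 and 2103 in WT replicates 1 and 2. Of the 11 genes tested on this list, 7 had a positive and 4 a negative difference, with a median of 0.16 that turned to -0.29 without CKO replicate 2 and was 0.53 without CKO replicate 1, and 0 passed in limma at an adjusted or an unadjusted p under 0.05. Dnajb1 and Dnaja1, another cochaperone, were at 1.01 (SE 0.40) and 0.60 (SE 0.45). Hspa1b and Dnaja1 were at -0.0053 and -0.0037 without CKO replicate 2, against 2.10 and 0.60 with it. The library in which all 10 immediate early genes lay above their mean, Jund at few reads, is also the one with the most heat shock RNA. Of all 16871 genes tested, 8330 lay above their mean there. The part of tissue handling was not tested.

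**Figure D5:**
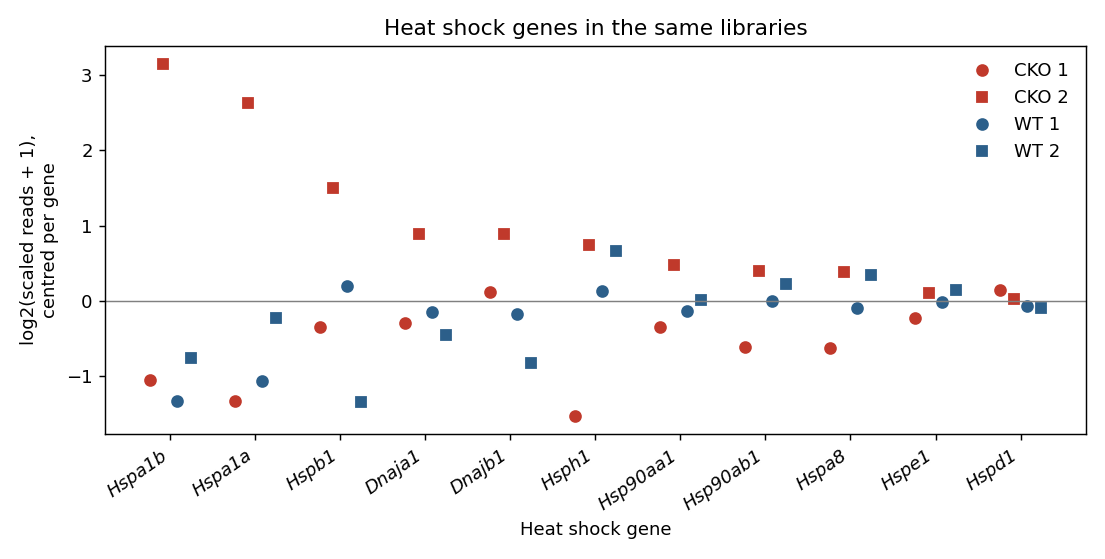
Distance of each library from the gene's own mean over the 4 libraries, in log2(scaled reads + 1), for 11 heat shock genes; circles are replicate 1 and squares replicate 2, red CKO and blue WT. Hspa1b and Hspa1a in CKO replicate 2 lie 3.16 and 2.64 above their means.

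Markers of other cell types varied widely between the libraries. All 12 macrophage markers had a negative difference, with a median of -2.29, and 0 passed an adjusted p under 0.05 in limma (0 higher and 10 lower at an unadjusted p under 0.05). Adgre1, which encodes the surface protein F4/80, had 1386 and 2813 scaled reads in CKO replicates 1 and 2, against 8381 and 33520.1 in WT replicates 1 and 2. Its log2 difference was -3.08 (SE 0.76), and -4.09 without WT replicate 1. Its libraries ran from CKO replicate 1 at the low end through CKO replicate 2 and WT replicate 1 to WT replicate 2. None of the 10 members had that full order. Junb, Atf3 and Dusp1 had the same highest and lowest library, with the middle libraries swapped. The share of all genes with either order was not counted. Endothelial markers, all 8 with a positive difference (median 1.16), were highest in CKO replicate 2 and lowest in WT replicate 2, as Jun, Egr1, Ier2 and Jund were. Their summed scaled reads were 76983 and 113845 in CKO and 68689 and 24207 in WT. Red blood cell markers did likewise in sum, at 18971 and 30255 in CKO and 9098 and 3263 in WT. All 6 had a positive difference (median 2.19), with 6 higher and 0 lower at an unadjusted p under 0.05 in limma and 0 adjusted calls. Neutrophil markers were few, between 261 and 827 summed scaled reads, and Ly6g was at 0 in CKO replicate 2 and both WT libraries. T and B cell markers summed to between 159 and 216, with Cd8a at 0 throughout. Mesothelial and smooth muscle markers summed to 365 and 219, and 10329 and 16089, in CKO replicates 1 and 2. In WT replicates 1 and 2 these sums were 301 and 157, and 13449 and 5101. Fibroblast markers summed to 21087 and 16901 in CKO and 25520.1 and 34744 in WT. Mitochondrial transcripts took 2.17% and 2.25% of reads in CKO and 3.12% and 1.68% in WT. Adipoq, the adipocyte hormone adiponectin, had 71564 and 39344 scaled reads in CKO replicates 1 and 2, against 46129.7 and 7950.0 in WT replicates 1 and 2, a log2 difference of 1.47 (SE 0.97). It rested on WT replicate 2, being 0.19 without that library and 2.73 without WT replicate 1. The part of these cells in the members' levels was not tested.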

How the data were processed

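RNA was extracted from isolated adipocytes with TRIzol and RNeasy columns and read on an Illumina NovaSeq, per the labels' protocols. STAR 2.7.5c, FastQC and GRCm38.p6 are named in the submitters' processing notes; for the counting tool, annotation and strand setting, the sources used here give nothing. The authors deposited one table of log2 values, named as normalised. Taking 2 to the power of each value, minus 1, gave whole reads within 0.01 for 100% of genes in each library, so the values are log2(reads + 1), unscaled.

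Reads were divided by median-ratio size factors (19847 genes, factors of 0.951 to 1.10), 1 was added and log2 taken, which understates changes of low genes. Genes whose deposited log2 values averaged 3 or more, 16871 in all, entered a limma fit (version 3.58.1, R 4.3.3) with genotype as its only term and a mean-variance trend in eBayes. Its two-sided p-values were adjusted over all 16871 by the Benjamini-Hochberg method. With 2 libraries against 2 an exact permutation test cannot go below p = 0.333. Of the gene identifiers, 55094 matched GENCODE M21, which gave coordinates and exon lengths.

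The fit was tested on simulated data. No protein sequences were used here. The members and lists were chosen with earlier results of these data known. Named are the members, up to 4 tested genes of smallest p in each related list, Prdm1, Adgre1, Adipoq and the 5 nearest profiles with a mean of at least 100 scaled reads; markers are given mostly as sums, and other genes for contrast were named after their values were seen. Settings tried were other filters, variance models, scalings, pseudocounts and weights, and each library left out in turn.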

Additional observations from a re-analysis of the deposited data

How the results depend on the processing

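No member passed an adjusted p under 0.05 in limma in any setting, and the count was 0 throughout, also with each library left out. The members' median difference, -0.016, ranged from -0.34 to 0.40 when single libraries were left out, with 0.40 without CKO replicate 1. It was 0.12 unscaled, 0.0686 with total reads and 0.23 with quantile normalisation, which put Fos at 0.36. The count of related genes past the threshold, 0, was 0 to 9 under leave-one-out, with 9 without WT replicate 1. Some signs turned when single libraries were left out: Fos ranged from -0.33 to 0.34, Fosb from -0.74 to 0.31, Junb from -0.42 to 0.00093, Nr4a1 from -0.55 to 0.46, Hspa1b from -0.0053 to 4.20 and Dnaja1 from -0.0037 to 1.18, the last pair turning without CKO replicate 2 alone. List medians ranged from -0.38 to 0.05 for the AP-1 network, -0.31 to 0.13 for the close relatives, -0.22 to 0.20 for the wider list and -0.29 to 0.53 for heat shock genes. The difference of Nr4a1 was also 0.0896 unscaled, 0.0410 with scaling by total reads and 0.0872 with quantile normalisation. The cause was not tested. The median of the upstream regulators, -0.037, was 0.096 unscaled, 0.047 with total reads and 0.019 with quantile normalisation, while leaving the values unscaled moved the median of all genes to 0.147. Jund did not pass the stricter filter and has no value there. Jun, Egr1, Ier2 and Jund stayed positive, and Atf3 and Dusp1 negative, in each setting that gave a value. No paired analysis was possible because the labels number no replicates across genotypes, so nothing ties a CKO library to a WT library.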
